A study of Mus musculus with 12 samples.

Results

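Granzymes, perforin and their companions, the NKG2D receptor and the H60b ligand make up a set of 10 genes linked to natural killer (NK) and cytotoxic T lymphocytes: Cd7, Nkg7, Gzma, Gzmb, Prf1, Ncr1, Eomes, Tbx21, Klrk1 and H60b. They are 10 of the 19946 genes that the array names through a probe set with 1 gene symbol, and each has 1 such probe set. The set is a list of known genes, but Cd7 and H60b were put on it because they had low unadjusted p-values between gonadal males and females in these same arrays. For those 2 genes the male and female values are therefore given as a description, with no test. RNA came from day 7 thymic epithelium/stroma of FCG mice, whose name stands for the core genotypes that the cross yields, on a C57BL/6J background, hybridised to 12 Affymetrix Mouse Gene 1.0 ST arrays. In this cross the Y chromosome lacks Sry, the testis-determining gene, which is carried as an autosomal transgene, so that gonads and sex chromosomes segregate independently. The groups were XYM (XY with the transgene and testes, 2 arrays), XXM (XX with the transgene and testes, 4 arrays), XYF (XY without the transgene and with ovaries, 3 arrays) and XXF (XX without it and with ovaries, 3 arrays). This gives 6 male and 6 female arrays, and 5 XY and 7 XX arrays. The labels name no treatment. Thymocytes were washed out of the tissue before extraction, and no cell type was sorted, so fewer cells of a type and less RNA per cell cannot be told apart. The sources do not say whether every array is 1 animal, and the p-values cover only array-to-array spread, which may be technical.

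Cytotoxic lymphocytes kill by releasing granules at the contact with a target cell. Perforin, encoded by Prf1, forms pores in the target membrane, through which the granzymes, serine proteases such as those of Gzma and Gzmb, enter and start cell death. Nkg7 encodes a granule membrane protein needed for efficient degranulation. Ncr1 encodes the activating receptor NKp46, found on NK cells and related innate lymphoid cells, and Klrk1 encodes NKG2D, an activating receptor that binds stress-induced ligands such as the product of H60b. Tbx21 (T-bet) and Eomes encode T-box transcription factors that direct NK and cytotoxic T cell differentiation, and Cd7 encodes a surface protein of early lymphoid, T and NK cells. The thymus holds few NK cells beside developing T cells, and some granzyme is made by unconventional T cells and innate lymphoid cells there.

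The upstream sequence is shown for Gzma, Nkg7, Gzmb and Prf1, whose products belong to the granules. The first 3 were lower on the same arrays, 9 to 12. Prf1 was higher there without passing the threshold (adjusted p = 0.0628 in limma). Ncr1 was lower on those arrays too, and its sequence is not printed. RefSeq (GRCm38.p6) gave a promoter for 8 of the 10 genes, all but Cd7 and H60b. Each line holds the 250 bases before the annotated start, 5′ to 3′ on the gene's strand, with the RUNX motif TGTGGT or its reverse complement ACCACA in capitals. The windows are chr13:113100982-113101231 on the minus strand for Gzma, chr7:43436888-43437137 on the plus strand for Nkg7, chr14:56262335-56262584 on the minus strand for Gzmb and chr10:61297586-61297835 on the plus strand for Prf1.
Gzma: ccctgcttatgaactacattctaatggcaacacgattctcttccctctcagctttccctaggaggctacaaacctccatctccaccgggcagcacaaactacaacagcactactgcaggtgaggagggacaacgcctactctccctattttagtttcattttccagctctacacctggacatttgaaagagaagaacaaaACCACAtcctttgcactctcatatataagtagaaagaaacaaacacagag
Nkg7: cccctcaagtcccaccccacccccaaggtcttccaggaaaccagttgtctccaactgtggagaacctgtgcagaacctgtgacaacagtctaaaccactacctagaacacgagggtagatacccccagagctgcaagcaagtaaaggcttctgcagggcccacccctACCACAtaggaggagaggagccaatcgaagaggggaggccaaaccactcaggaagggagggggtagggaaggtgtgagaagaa
Gzmb: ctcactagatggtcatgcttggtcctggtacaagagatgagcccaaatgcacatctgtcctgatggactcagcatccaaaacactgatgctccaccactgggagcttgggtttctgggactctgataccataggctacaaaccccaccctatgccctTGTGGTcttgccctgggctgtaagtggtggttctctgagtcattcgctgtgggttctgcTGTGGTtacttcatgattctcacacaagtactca
Prf1: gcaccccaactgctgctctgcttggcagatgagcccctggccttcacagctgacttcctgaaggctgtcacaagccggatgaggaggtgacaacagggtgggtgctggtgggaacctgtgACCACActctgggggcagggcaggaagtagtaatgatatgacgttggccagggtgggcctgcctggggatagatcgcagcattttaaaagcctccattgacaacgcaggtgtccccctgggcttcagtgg

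RUNX factors are known regulators of cytotoxic genes. In Gzma the motif began 50 bases before the start, in Nkg7 83 bases and in Prf1 130 bases before it, while Gzmb held it at 93 and again at 34 bases. The motif was also present upstream of Ncr1 and Klrk1, hence in 6 of the 8 promoters, whereas 14.0% of 32851 RefSeq promoters of the same length held it on either strand. It was absent from these windows of Eomes and Tbx21. The longer T-box motif AGGTGTGA, in 1.12% of all promoters, occurred in Nkg7 alone, where it contains the T-box core GGTGTG, present in 16.3% of all promoters and in none of the other 7. The STAT motif TTCNNNGAA (7.02% of promoters) was found in Nkg7 and the AP-1 motif TGANTCA (6.75%) in Gzmb. The ETS motif GGAAGT (19.7%) was found in Prf1 and Tbx21, and the CRE motif TGACGTCA (1.55%) in 0 of the 8. These 7 motifs were searched on both strands, and a match describes the letters only.

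The arrays carry the sexes and chromosomes that the labels state. Xist, the X-inactivation RNA, had a signal of 40.0 to 79.9 on XY arrays and 8505 to 9884 on XX arrays, and Sry 2524 to 2836 on male arrays and 416 to 565 on female arrays. Array medians ran from 327.5 to 345.5. As the deposited values hold no detection call, levels were read against 1035 olfactory receptor probe sets, genes with little expression away from the nasal epithelium, whose median was 107 and whose 95th percentile was 309.5. Female arrays carry no Sry, yet their Sry signal lay above that percentile, so a signal above it need not mean expression. By that percentile 18 of 18 thymocyte markers and 16 of 17 thymic epithelium markers were bright. Of the 19946 named genes, the 11274 compared further below also had a mean above it. The thymocyte markers had means of 599 to 7286, so RNA of thymocyte genes was present in the washed tissue. The first principal component (30.7% of the variance) went with the numbering of the arrays: arrays 9 to 12 scored 8.65 to 36.1, and arrays 1 to 8 scored -20.9 to 5.33. Arrays 1 to 4 and arrays 9 to 12 each held 1 array of every genotype, and arrays 5 to 8 held 2 XXM, 1 XYF and 1 XXF array. Nothing says what the numbers stand for.

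Of the 10 genes, Gzma, Nkg7 and Cd7 had a mean signal above that 95th percentile, here called the reference level. Gzma read 964 and 839 on the XYM arrays, 1091, 839, 1177 and 625 on the XXM arrays, 938, 1246 and 642 on the XYF arrays, and 959, 1101 and 812 on the XXF arrays. All 12 values lay above the reference level, and the genotypes overlapped. Its mean was 936 ± 196 (SD, n = 12), and the highest array had 1.99 times the signal of the lowest.

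Nkg7 read 648 and 404 on the XYM arrays, 618, 509, 643 and 449 on the XXM arrays, 661, 715 and 612 on the XYF arrays, and 697, 672 and 519 on the XXF arrays. The lowest array was an XYM array and the highest an XYF array, and the sexes overlapped. Its mean of 596 ± 101 (SD, n = 12) stood at percentile 99.8 of the olfactory receptors. Cd7 read 337 and 292 on the XYM arrays, 321, 358, 308 and 299 on the XXM arrays, 402, 391 and 352 on the XYF arrays, and 377, 406 and 366 on the XXF arrays. The highest male value, 358, exceeded only 1 of the 6 female values. With a mean of 351 ± 39.5 (SD, n = 12) it stood at percentile 96.9, and 9 of the 12 arrays exceeded the reference level. All 12 Cd7 values lay below the Sry signal of the female arrays (416 to 565), which lack that gene.

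The other granule genes were dimmer. Gzmb read 218 and 187 on the XYM arrays, 195, 205, 189.6 and 144 on the XXM arrays, 253, 258 and 209 on the XYF arrays, and 219.7, 208 and 197 on the XXF arrays. The lowest value was that of XXM array 10 and the 2 highest were XYF arrays. Prf1, the pore protein, read 193 and 246 on the XYM arrays, 207, 206, 214 and 224 on the XXM arrays, 179, 199 and 212 on the XYF arrays, and 203, 213 and 212 on the XXF arrays. Both the highest and the second lowest Prf1 value belonged to XYM. Gzmb averaged 207 ± 29.9 and Prf1 209 ± 16.4 (SD, n = 12), which placed Gzmb at percentile 86.7 and Prf1 at percentile 87.1 of the olfactory receptors, so neither was set apart from them by its signal.

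The genes that define NK cells were at the median of the olfactory receptors. Ncr1 ranged from 80.2 to 112 with a mean of 98.4 (percentile 45.5), Klrk1 from 90.4 to 121 with a mean of 103 (percentile 48.4) and Eomes from 102 to 121 with a mean of 112 (percentile 52.7). Tbx21 was higher, from 240.0 to 300.0 with a mean of 269 (percentile 92.6). Of 29 other NK receptor genes measured, 13 lay below the olfactory median of 107, 10 between it and the reference level and 6 above that level, with Slamf6 (2808), Cd96 (1427) and Itga1 (927) the brightest, and the products of all 3 are known on T cells as well. The name of NK genes therefore holds for what Ncr1, Klrk1 and Eomes are known for, while they gave no signal above the reference level in this tissue.

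H60b read 241 and 211 on the XYM arrays, 243, 217, 204 and 241 on the XXM arrays, 232, 269 and 267 on the XYF arrays, and 284, 292 and 325 on the XXF arrays. The 3 XXF arrays were the 3 highest of the 12. Its mean of 252 ± 36.0 (SD, n = 12) was at percentile 91.2, with 1 array, of XXF, above the reference level. The sequences of H60 family members, of granzymes of the Gzmb cluster and of the Klr family are related, and probes may share signal between them.

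**Figure D1:**
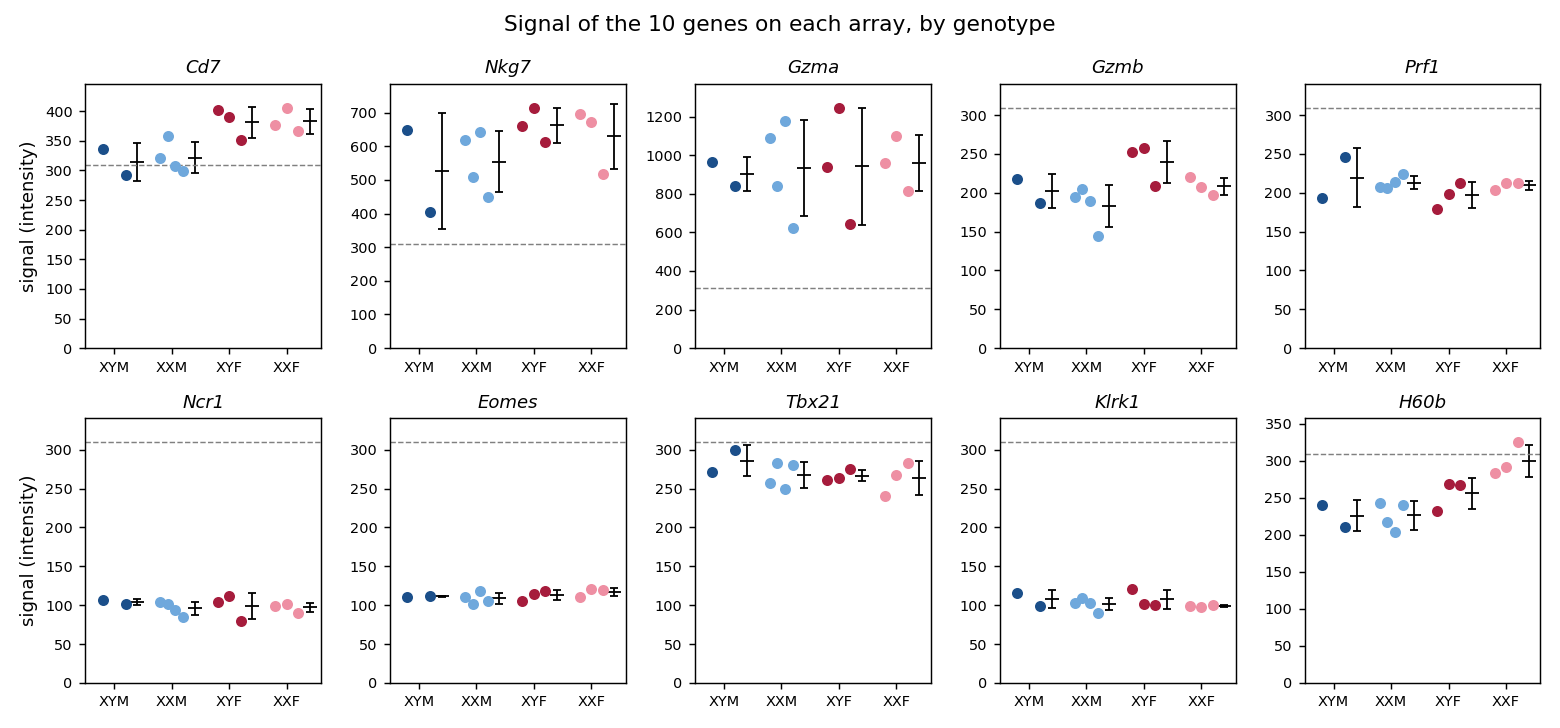
Signal (intensity, linear axis from 0) of each gene on each array, by genotype from XYM to XXF; points are arrays, bars the mean ± SD, and the dashed line marks the reference level from olfactory receptors (309.5). Gzma, Nkg7 and most Cd7 values stand above the line, Ncr1, Klrk1 and Eomes lie far below it, and H60b is highest on the 3 XXF arrays.

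To ask whether the sex chromosomes set the level of these genes, XY arrays were compared with XX arrays in a limma fit of the 4 genotypes, averaging over gonadal sex. None of the 10 genes passed an adjusted p of 0.05 over all probe sets, and 0 of 10 had an unadjusted p under 0.05, against 0.0366% and 2.55% of all 35556 probe sets. The largest difference was that of Gzmb, with 225 ± 30.0 (SD, n = 5) on XY arrays and 194 ± 24.0 (SD, n = 7) on XX arrays, a log2 difference of 0.17 (95% interval -0.04 to 0.39, adjusted p = 1.00 in limma, standard error 0.10). For 2 XY arrays the value exceeded every XX array, and the groups otherwise overlapped. An exact two-sided permutation test over the 792 groupings of arrays gave p = 0.0884 for Gzmb. It tests the plain log2 difference between all XY and all XX arrays, 0.21, and these groups are not balanced for gonadal sex. H60b had 244 ± 24.5 on XY arrays and 258 ± 43.4 on XX arrays, a log2 difference of -0.12 (95% interval -0.28 to 0.05, adjusted p = 1.00 in limma).

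Cd7, Nkg7 and Gzma, the genes above the reference level, gave values near 0 with different precision. For Cd7 the XY minus XX log2 difference was -0.02 (95% interval -0.17 to 0.13), for Nkg7 -0.01 (-0.31 to 0.29) and for Gzma -0.04 (-0.45 to 0.38). The interval of Gzma corresponds to ratios between 0.730 and 1.30, so changes within that range were not excluded by the 12 arrays. Klrk1 (0.10), Ncr1 (0.07), Tbx21 (0.06), Prf1 (-0.03) and Eomes (-0.01) completed the list, whose median was -0.01 beside 0.01 over all probe sets. Gzmb differed by 0.18 in arrays 1 to 4, by 0.36 in arrays 5 to 8 and by 0.23 in arrays 9 to 12. With these array sets as a block it was 0.21 (adjusted p = 0.718 in limma), where 0.0394% of all probe sets were called and 6.90% of all probe sets had an unadjusted p under 0.05. Beside these values, the summed signal of the 18 thymocyte markers ran from 57813 to 59634 on XY arrays and from 60278 to 66524 on XX arrays, and its part in the result was not tested.

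To ask whether gonadal sex did, the 6 male arrays were compared with the 6 female arrays in the same fit. None of the 8 genes tested was called, against 0.00281% of all probe sets, and 1 of 8, Gzmb, had an unadjusted p under 0.05, against 3.03%. Gzmb had 189.9 ± 25.1 on male arrays and 224 ± 25.2 on female arrays (SD, n = 6 each), a log2 difference of -0.22 (adjusted p = 0.985 in limma, standard error 0.10). Of the male arrays, 4 were below every female array and 3 female arrays above every male array. The exact two-sided permutation test over 924 groupings gave p = 0.0303. It tests the plain log2 difference between all male and all female arrays, -0.24, and these groups are not balanced for sex chromosomes. Without XXM array 10, the lowest of the male arrays, the Gzmb difference was -0.16 (unadjusted p = 0.0622 in limma). With each array left out it ranged from -0.27 to -0.16. Nkg7 had 545 ± 106 on male arrays and 646 ± 71.5 on female arrays (SD, n = 6 each), a log2 difference of -0.28 (adjusted p = 0.985 in limma, standard error 0.14). Its plain log2 difference of -0.26 had an exact permutation p of 0.0779. For Nkg7, 3 males were below every female and 4 females above every male.

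Both differences had the same sign in each array set, -0.19, -0.23 and -0.31 for Gzmb and -0.10, -0.28 and -0.40 for Nkg7 in arrays 1 to 4, 5 to 8 and 9 to 12. Arrays 5 to 8 held no XYM array, so the male arrays there were all XX while the female arrays were not. With the sets as a block, Gzmb had -0.21 (adjusted p = 0.386 in limma) and Nkg7 -0.26 (adjusted p = 0.386 in limma), where 11.5% of all probe sets had an unadjusted p under 0.05. The Nkg7 difference moved with both XYM arrays, being -0.11 without XYM array 9 and -0.45 without XYM array 1. The remaining tested genes lay closer to 0, with Prf1 at 0.09 (95% interval -0.07 to 0.25), Tbx21 at 0.06, Ncr1 at 0.03, Klrk1 at 0.02, Gzma at -0.04 (-0.46 to 0.37) and Eomes at -0.06.

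As a description of the 2 genes chosen on this contrast, Cd7 had 319 ± 24.6 on male arrays and 382 ± 20.8 on female arrays, with 5 of 6 males below every female, and a log2 difference of -0.27. H60b had 226 ± 17.3 on male arrays and 278 ± 30.9 on female arrays, with 5 of 6 females above every male, and a log2 difference of -0.29. Within the array sets the Cd7 difference was -0.24, -0.26 and -0.28, and that of H60b -0.09, -0.41 and -0.38, the second set holding no XYM array. For Cd7 the log2 difference was -0.28 in XYM minus XYF, with both XYM arrays below the XYF arrays, as for 7.80% of all probe sets. In XXM minus XXF it was -0.25 for Cd7 and -0.41 for H60b, both with no overlap of the arrays, as for 0.967% of all probe sets, and in XYM minus XYF H60b had -0.18.

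**Figure D2:**
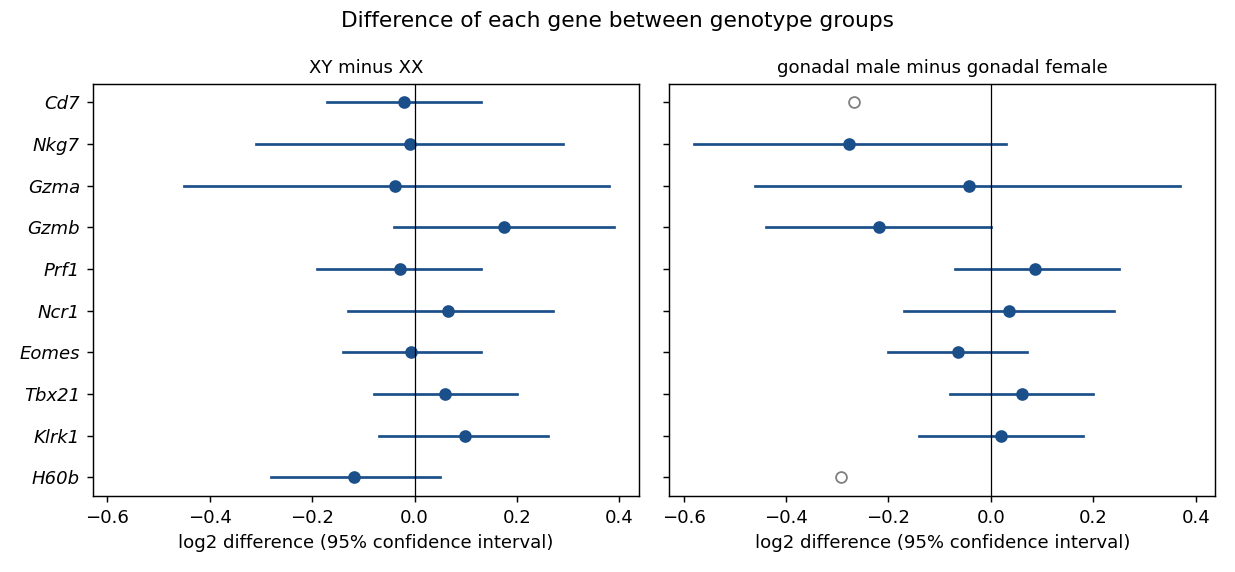
Log2 difference of each gene, XY minus XX on the left and gonadal male minus gonadal female on the right, with 95% confidence intervals from the limma fit; open grey circles without an interval mark Cd7 and H60b, which were chosen on the male and female contrast. All intervals on the left cross 0, and on the right Gzmb and Nkg7 lie lower in males with intervals that end near 0.

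The 4 genotypes were then set against each other. In the overall comparison of genotypes 0 of the 8 genes tested were called, against 0.0281% of all probe sets, and 0 had an unadjusted p under 0.05, against 1.99%. The lowest unadjusted p was that of Gzmb (adjusted p = 1.00 in limma). The interaction, which asks whether the XY minus XX difference depends on gonadal sex, was called for 0 of 10 genes and had an unadjusted p under 0.05 for 0 of 10, against 0.00% and 1.54% of all probe sets. Its largest value was that of H60b, 0.23 (standard error 0.15). H60b averaged 256 ± 21.0 on XYF arrays and 300.2 ± 21.4 on XXF arrays (SD, n = 3 each), a log2 difference of -0.23 (adjusted p = 1.00 in limma). No XYF array reached an XXF array, a separation in that direction that 1.71% of all probe sets showed. Klrk1 was the 1 gene of the set with the opposite separation (2.04% of all probe sets), with 100.1 to 121 on XYF arrays and 97.7 to 99.9 on XXF arrays. Between XYM and XXM, H60b averaged 226 ± 21.1 (n = 2) and 226 ± 18.7 (n = 4). None of the genes was called in a genotype pair, against 0.0197% of all probe sets in XYM minus XXM, 0.0169% in XYF minus XXF, 0.00562% in XYM minus XYF and 0.00281% in XXM minus XXF. At an unadjusted p under 0.05, 1 of 36 tests passed, that of H60b in XYF minus XXF, where 0.951% of all probe sets did. The other pairs had 3.41% (XYM minus XXM), 3.14% (XYM minus XYF) and 1.45% (XXM minus XXF) of all probe sets.

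Across arrays the genes varied with the array number. In the fit with genotype, Gzma had a log2 difference of -0.54 between arrays 9 to 12 and arrays 1 to 8 (adjusted p = 0.0206 from limma), Nkg7 of -0.39 (adjusted p = 0.0190), Gzmb of -0.28 (adjusted p = 0.0163) and Ncr1 of -0.23 (adjusted p = 0.0283). Hence 4 of the 10 genes were lower on arrays 9 to 12, against 10.8% of all probe sets, and 0 were higher, against 15.0%, or 25.8% in either direction. The split was drawn from the first principal component of these same arrays, so these p-values describe it and are no independent test. Gzma averaged 729.5 ± 112 (SD, n = 4) on arrays 9 to 12 and 1039 ± 137 (SD, n = 8) on arrays 1 to 8, with ranges of 625 to 839 and 839 to 1246.

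The remaining genes did not pass. Cd7 (-0.15, adjusted p = 0.0628), Klrk1 (-0.13, adjusted p = 0.120), Prf1 (0.14, adjusted p = 0.0628), Tbx21 (0.11, adjusted p = 0.114), H60b (0.07) and Eomes (0.02) had smaller differences in limma. Prf1 averaged 223 ± 15.8 (SD, n = 4) on arrays 9 to 12 and 202 ± 11.5 (SD, n = 8) on arrays 1 to 8. On arrays 9 to 12 the median of the olfactory receptor probe sets was 108 to 131 and on arrays 1 to 8 it was 91.3 to 118, and the lower quartile of all probe sets was 166 to 178 and 152 to 171. The summed signal of the 17 thymic epithelium markers was 36457 to 41286 on arrays 9 to 12 against 38275 to 46253 on arrays 5 to 8 and 1 to 4 together, and 6 of these markers were lower on arrays 9 to 12. Over all probe sets 10.8% were lower there and 15.0% higher. Other lists differed: 0 of 5 erythroid markers were lower and 3 higher, and 1 of 17 macrophage and dendritic markers lower and 3 higher. Of 18 thymocyte markers 1 was lower and 1 higher, of 9 B cell markers 0 and 1, and of 12 fibroblast and vessel markers 1 and 0. For the 7 measured markers of gamma delta and innate T cells the sum was 3147 to 3314 on arrays 9 to 12, 3410 to 3482 on arrays 1 to 4 and 3210 to 3638 on arrays 5 to 8, with 2 markers, Il23r and Blk, lower on arrays 9 to 12 (median log2 difference of the list -0.14), Il23r being named after its value was seen. The mean of these markers had r = 0.64 with Gzma (rho = 0.46, permutation p = 0.0263, adjusted p = 0.167) and r = 0.61 with Nkg7 (rho = 0.42, permutation p = 0.0366, adjusted p = 0.183) over 12 arrays. On arrays 1 to 8 the r was 0.04 with Gzma and -0.20 with Nkg7, and without the 2 arrays farthest from the median it was 0.49 with Gzma and 0.14 with Nkg7. Other genes went the opposite way with the same marker mean over 12 arrays. Tbx21 had r = -0.68 (permutation p = 0.0144, adjusted p = 0.145) and Prf1 r = -0.59 (permutation p = 0.0431, adjusted p = 0.194). Eomes and H60b also had a negative r, and Cd7, Gzmb, Ncr1 and Klrk1 a positive r. The part of these shifts in the result was not tested.

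**Figure D3:**
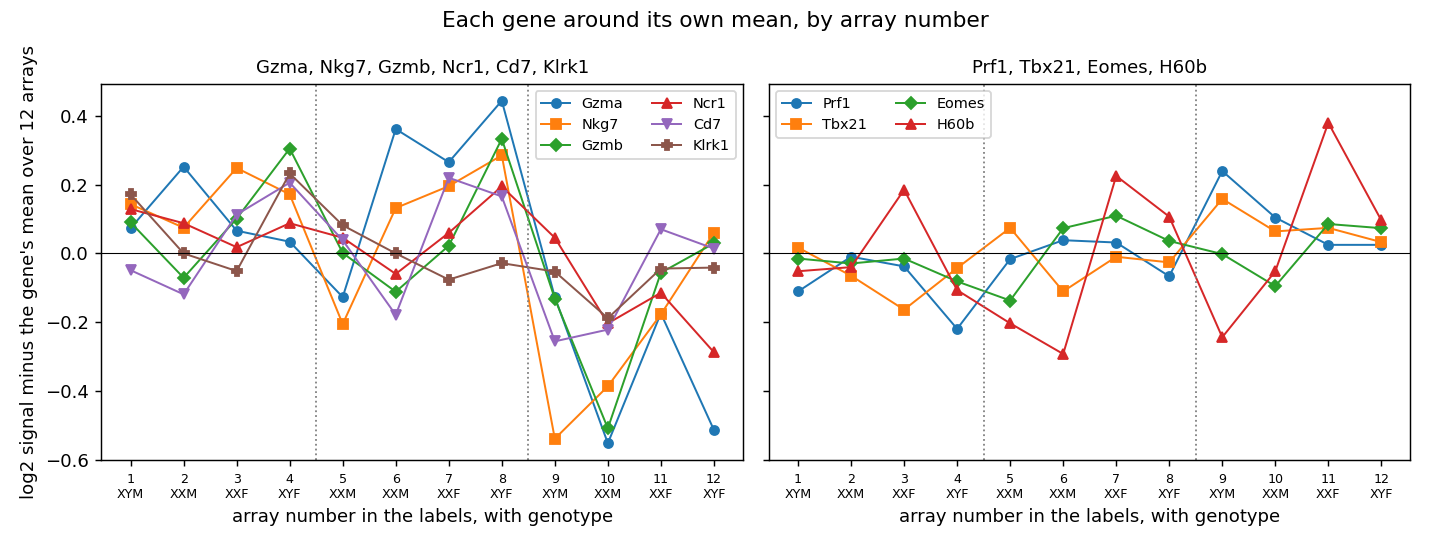
Log2 signal of each gene minus its own mean over 12 arrays, by array number with the genotype beneath; dotted lines part arrays 1 to 4, 5 to 8 and 9 to 12. Gzma, Nkg7, Gzmb and Ncr1 lie lower on most of arrays 9 to 12, Prf1 and Tbx21 lie higher there, and H60b peaks on XXF arrays 3, 7 and 11.

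To ask whether the genes moved together, Pearson's r was computed for the 45 pairs over 12 arrays, with two-sided permutation p-values adjusted over the 45. By r, 3 pairs passed, each holding a gene whose mean signal lay below the reference level (Gzmb, Tbx21 or Ncr1). Gzmb and Cd7 varied together with r = 0.76 (permutation p = 0.00173, adjusted p = 0.0389) and Spearman's rho = 0.78 (permutation p = 0.00357, adjusted p = 0.0535). Without the 2 arrays farthest from the median of Cd7 the r was 0.68, on arrays 1 to 8 alone 0.72 (exact permutation p = 0.0469) and after removing the array-set means 0.71. Both genes also had lower signal on male arrays, and Cd7 was chosen for that.

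Nkg7 and Tbx21 moved in opposite directions, with r = -0.81 (permutation p = 0.00111, adjusted p = 0.0389) and rho = -0.76 (adjusted p = 0.0586). Their r was -0.70 without the 2 arrays farthest from the median of Nkg7, -0.60 on arrays 1 to 8 (exact permutation p = 0.124) and -0.62 after removing the array-set means. Gzma and Ncr1 had r = 0.78 (permutation p = 0.00304, adjusted p = 0.0456) and rho = 0.70 (adjusted p = 0.0809), but 0.42 without the 2 arrays farthest from the median of Gzma and 0.15 on arrays 1 to 8 (exact permutation p = 0.727). After removing the array-set means it was 0.54. By rank, Gzmb and Prf1, whose proteins act together in the granule, moved in opposite directions with rho = -0.85 (permutation p = 0.000860, adjusted p = 0.0387), while r was -0.71 (adjusted p = 0.0909). The mean signals of Gzmb and Prf1 both lay below the reference level.

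None of the 45 pairs passed within arrays 1 to 8, where 4 had an exact p under 0.05, compared with 13 over all 12 arrays. The number of pairs that passed was 0 when XXM array 2, XYF array 4, XYF array 8 or XXF array 3 was left out, 1 without XXM array 10, and 5 without XXM array 6 or XXF array 7. The 2 granzymes had r = 0.54 (adjusted p = 0.201), Nkg7 had 0.64 with Gzma (adjusted p = 0.120) and 0.71 with Gzmb (adjusted p = 0.0574), and NKG2D (Klrk1) and its ligand H60b -0.31 (adjusted p = 0.481), all permutation p-values. For comparison, 3.33% of all probe sets had an r with Nkg7 at least as high as that of Gzmb. With Gzma 2.51% had one at least as high as that of Ncr1, and with Cd7 0.458% one at least as high as that of Gzmb. An r with Nkg7 at least as low as that of Tbx21 was found for 0.897%.

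**Figure D4:**
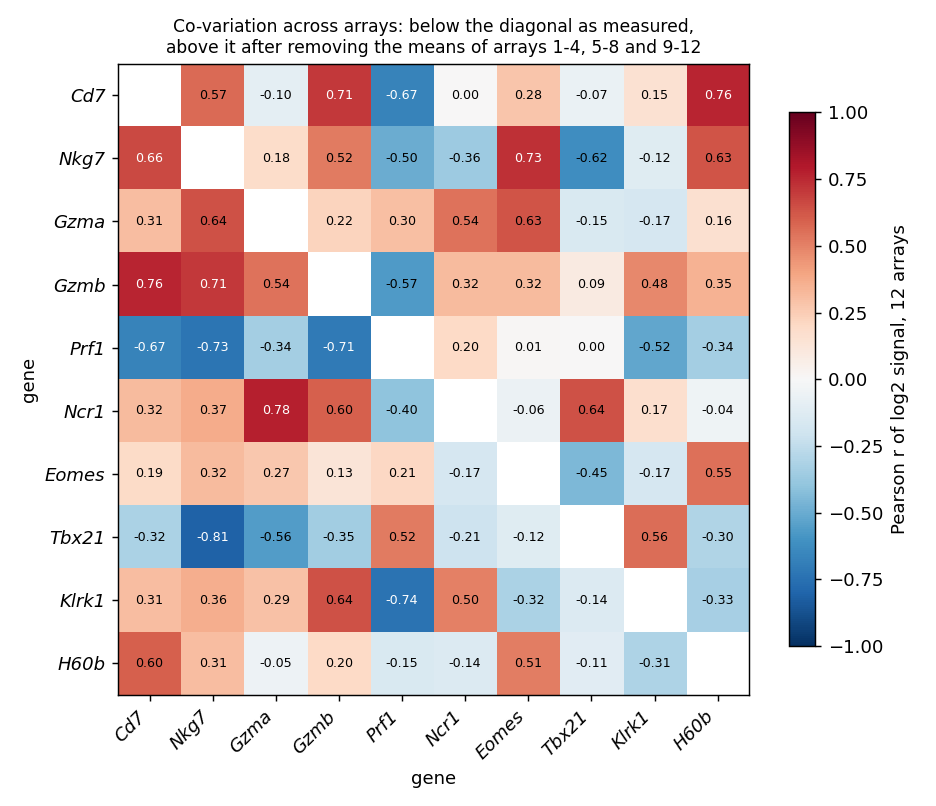
Pearson's r of log2 signal over 12 arrays for the 45 pairs of genes, as measured below the diagonal and after removing the means of arrays 1 to 4, 5 to 8 and 9 to 12 above it; red is positive and blue negative. Gzmb with Cd7 is 0.76 below and 0.71 above the diagonal, and Gzma with Nkg7 0.64 below and 0.18 above.

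Among 70 relations of the 10 genes with array measures and the mean log2 signal of marker lists, none passed the adjusted threshold. Among the closest were Prf1 with the median of the olfactory receptor probe sets (r = 0.80, rho = 0.78, permutation p = 0.00194, adjusted p = 0.0506) and Gzmb with the mean of the thymic epithelium markers (r = 0.78, rho = 0.80, permutation p = 0.00138, adjusted p = 0.0506). On arrays 1 to 8 the first had r = 0.47 (exact permutation p = 0.243) and the second 0.66 (exact permutation p = 0.0774). Without the 2 arrays farthest from the median they were 0.72 and 0.65. Prf1 with the lower quartile of the array had the same adjusted p (r = 0.77, rho = 0.74, permutation p = 0.00217), with r = 0.45 on arrays 1 to 8 (exact permutation p = 0.271). By rank, Prf1 had rho = -0.86 with the mean of the thymic epithelium markers (unadjusted permutation p = 0.000440), where r was -0.66 (adjusted permutation p = 0.145). Among 11274 named genes compared over 12 arrays, the patterns most like Gzma were those of Mcm9 (r = 0.94), a helicase of DNA repair, Pde7a (0.93), a cyclic AMP phosphodiesterase, and Ankrd12 (0.93). Closest to Nkg7 were 2210016L21Rik (0.93), Acad9 (0.92), which takes part in assembling mitochondrial complex I, and the ubiquitin ligase gene Dtx3l (0.92). Closest to Cd7 were Tmem126a (0.89), Zcrb1 (0.88) and Zfp943 (0.87). Only genes with a mean above the reference level were compared. Of the cytotoxic set only Gzma, Nkg7 and Cd7 could therefore appear, and none of them was among these 9.

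The partners of the 10 genes were described from lists of known function. No gene of any list was called in XY minus XX or in male minus female. Of the 19946 named genes, the 11274 compared above had a mean above the reference level. The counts of bright genes below are to be read beside that share. Of 9 adaptor genes 8 were above the reference level, including Tyrobp, which encodes the DAP12 adaptor, with a mean of 509. Sh2d1a, which encodes the adaptor SAP, had an XY minus XX log2 difference of -0.21 (adjusted p = 1.00 in limma). Of 21 further granule genes 11 were above the reference level, among them Srgn (3816), the serglycin core of granules, Lamp1 (2200) and Stxbp2 (1800), which serves granule fusion. The granule list had a median XY minus XX difference of 0.01 and a male minus female difference of 0.02, and 0 of 21 had an unadjusted p under 0.05 in the first, against 2.55% of all probe sets, and 1 of 21 in the second, against 3.03%.

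Of 29 NK receptor genes, 20 had a positive XY minus XX difference, against 52.6% of all probe sets, with a median of 0.06 beside 0.01 over all probe sets. An unadjusted p under 0.05 was found for 3 of the 29, against 2.55% of all probe sets. Klrd1, which encodes CD94, had 0.24 for XY minus XX (adjusted p = 1.00 in limma) and -0.24 for male minus female (adjusted p = 0.985 in limma), at a mean signal of 175, under the reference. Those are the signs that Gzmb showed, but the list did not share the second of them. Male minus female was above 0 for 14 of the 29 and below 0 for 15, with a median of -0.00. Cd96, also with an unadjusted p under 0.05 in limma for XY minus XX, had -0.16 there. In the IL-15 and IL-12 group, which supports NK and cytotoxic cells, Il15ra, the chain that presents IL-15, had 0.19 (adjusted p = 1.00 in limma) and Il18rap 0.18 (adjusted p = 1.00 in limma) for XY minus XX, and 12 of 23 genes were above the reference level. Of the 14 transcription factors beside Eomes and Tbx21, 9 were above it, with Ets1 (2567), Ikzf3 (2352) and Tox (1842) brightest, all used by T cells as well. Sectm1a, a partner of Cd7, had a mean of 206, under the reference level, and 0.18 for XY minus XX (adjusted p = 1.00 in limma). Raet1d, the 1 other NKG2D ligand measured of 8 listed, had a mean of 129.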

How the data were processed

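Thymic epithelium/stroma RNA of 12 FCG arrays was analysed. The deposited values are linear intensity values for 35556 probe sets, a probe-set summary that the authors computed. The submitters' processing notes name PLIER and Affymetrix Expression Console 1.1, while the methods name RMA and quantile normalization, and the settings are not given in the sources used here. The table held 0 columns without a sample. Gene names came from the array annotation: 21797 probe sets had 1 symbol, 1613 several and 12146 none, and the brightest probe set stood for a gene. Log2 values were fitted with limma 3.58.1 (R 4.3.3; 4 genotype means, eBayes), with Benjamini-Hochberg adjustment over the whole array. Correlations and exact tests were computed in Python 3.11.15 with scipy 1.17.1, with 100000 resamples where not exact. Scripts were tested on simulated data. Members and lists were chosen with earlier results of these data known. All 10 members are named; of each list, the 3 brightest genes and the 2 with the lowest XY minus XX p could be named, and for genes above the reference the 3 most similar genes. The number of arrays limits the precision. Alternatives covered normalization, an offset of 16, a filter at a signal of 200, annotation, moderation, array weights, the model, the methods' ANOVA, array sets and each array left out.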

Additional observations from a re-analysis of the deposited data

Results flagged for a closer look

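In Gzmb, 1 of 7 XX arrays stood apart from the others, XXM array 10 with a signal of 144, while the other XX arrays read 189.6 to 219.7. In Klrk1, 1 of 6 female arrays stood apart, XYF array 4 with a signal of 121, while the other female arrays read 97.7 to 101, all near the median of the olfactory receptor probe sets. Of 50 groups of arrays examined in this way 2 stood apart, and chance flags about 1 in 20 groups.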

How the results depend on the processing

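In the comparisons of genotypes the count of genes called was 0 under each of the 22 alternatives that could be fitted, each array left out in turn included. Of these, the mean over the probe sets of a gene could not differ from the main fit, as each gene has 1 probe set. Its values are among the 320 below and among those that kept their sign. Cd7 and H60b were not tested where gonadal sex enters, the signal filter left 7 genes (5 where those 2 were not tested), and the additive model covered XY minus XX and male minus female only. Of 320 values of the XY minus XX and male minus female differences under the alternatives, 284 kept their sign and 36 did not, in 9 results, the largest reversed size being 0.16 (Nkg7, XY minus XX, without XYM array 9). With the array sets as a block, XY minus XX became 0.00 for Cd7, 0.03 for Nkg7, 0.06 for Gzma and 0.01 for Eomes, and after a renewed quantile normalization male minus female became -0.01 for Ncr1 and -0.02 for Klrk1. With each array left out, XY minus XX ranged from -0.07 to 0.03 for Cd7, -0.18 to 0.16 for Nkg7, -0.15 to 0.09 for Gzma, -0.12 to 0.06 for Prf1 and -0.03 to 0.02 for Eomes, and, with the sign kept, 0.04 to 0.16 for Klrk1, 0.02 to 0.14 for Ncr1, 0.02 to 0.09 for Tbx21 and -0.17 to -0.07 for H60b. Male minus female ranged from -0.45 to -0.11 for Nkg7, -0.17 to 0.07 for Gzma, -0.00 to 0.17 for Prf1, -0.04 to 0.08 for Ncr1 and -0.04 to 0.08 for Klrk1. For Gzmb, XY minus XX ranged from 0.12 to 0.23 and male minus female from -0.27 to -0.16. The number of correlated pairs, 3, became 6 after quantile normalization, 0 after removing the array-set means, 0 on arrays 1 to 8 alone (chosen after seeing the data), and 0 to 5 with each array left out. With 170 vomeronasal receptor probe sets as the reference (level 172), 7 genes in place of 3 counted as above the reference level. The causes were not tested. No paired analysis was possible because no 2 groups share a replicate number in the labels, and the block used here is the array set.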
